A study of Mus musculus with 20 samples.

Results

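The livers of mice that received either of 2 siRNAs against Ppara were compared with the livers of mice that received either of 2 control siRNAs, and transcripts that moved the same way with both Ppara siRNAs were sought. Of the 20 arrays of the series, 16 entered the comparison by their titles, 4 with PPARa siRNA, 4 with PPARa-M siRNA and 4 with each control siRNA, GL3 or SEAP-M. Each mouse was given 40 µg of siRNA in Ringer's solution by hydrodynamic tail vein injection, a rapid injection of a large volume that carries nucleic acid mainly into hepatocytes, and livers were taken 48 h later. PPARa siRNA and PPARa-M siRNA are directed at different stretches of the Ppara mRNA, whereas GL3 (firefly luciferase) and SEAP (secreted alkaline phosphatase) are reporter genes. The remaining 4 mice were injected with Ringer's solution alone and are called vehicle. What the suffix M stands for, and the strain, age and sex of the mice, are not given in the sources used here. SEAP-M shares the suffix of PPARa-M, so PPARa siRNA was paired with GL3 and PPARa-M siRNA with SEAP-M. The knockdown is partial and in whole liver at a single time, and every mouse compared carried an siRNA and had undergone the injection.

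Liver RNA was measured on 2-colour oligonucleotide arrays against pooled RNA of 4 vehicle mice, and each of 23493 probes has a log10 ratio that is given here as log2. The ratio is likely that of the mouse over the pool, from the order in the array titles, the dyes (Cy3 for the pool, Cy5 for the mouse) and the design, and the lowest correlation between any pair of arrays was -0.26. A ratio gives no level, so that markers of liver cells could not be checked for presence. Array medians lay between -0.0093 and 0.0060 on the log10 scale. The interquartile range of the log10 ratios was widest with PPARa-M siRNA, at 0.0735 to 0.1245, against 0.0520 to 0.0852 with SEAP-M, 0.0569 to 0.0790 with PPARa siRNA and 0.0442 to 0.0594 with GL3. PPARa-M siRNA replicates C and D may be repeats of 1 sample and were averaged and counted as 1, although the labels list them separately. Their probe-by-probe differences did not repeat between probes of 1 gene (r = 0.01 over 2404 genes), unlike those of the 29 other pairs of arrays within groups (r = 0.18 to 0.44). Their median absolute difference of 0.091 was the smallest of any pair, but vehicle C and SEAP-M B, from different groups, came close at 0.094. The log2 ratios of C and D correlated at 0.53, below the 0.64 of replicates A and B. The comparison therefore rests on 7 Ppara siRNA samples and 8 control samples, and their number limits the precision. Beyond the 4 animals per group in the design, the labels do not tie arrays to animals, and the p-values measure the spread between these samples.

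PPARα, the product of Ppara, is a nuclear receptor that is activated by fatty acids and, as a heterodimer with RXR, drives the transcription of genes for fatty acid uptake, mitochondrial and peroxisomal β-oxidation and ketone body formation in liver. Hepatocytes depend on it most during fasting. An siRNA guides cleavage of the mRNA it pairs with fully, and can also lower other transcripts with which it pairs in part, so that transcripts moved by a single siRNA may differ from those moved by another siRNA against the same gene.

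Of 23493 probes, 36 (0.153%) differed between the mean of the Ppara siRNA groups and the mean of the control groups at a limma p under 0.05 after Benjamini-Hochberg adjustment, 17 of them higher (0.0724%) and 19 lower (0.0809%). Before adjustment 2813 (12%) had a p under 0.05. For 17 probes (0.0724%), 8 higher (0.0341%) and 9 lower (0.0383%), each pair also showed the same sign with an unadjusted p under 0.05. These probes are called here the same way in both pairs. They name 12 genes, with Ppara, Vnn1, Chrna2, Sort1, Lama1 and Ergic2 lower and Dusp1, Nr4a1, 1700067K01Rik, Ggt6, Gstt3 and Asl higher, and 1 further lower probe has no symbol. The difference between the pairs did not pass for any of the 17, with adjusted p from 0.160 to 0.774 and no test that the pairs were alike. Their choice by the same sign and a low p in each pair makes such a difference less likely. Among the 17, only the 3 probes of Dusp1 changed at least 2-fold. After quantile normalization of the arrays 0 of the 23493 probes passed in limma, with 1577 at an unadjusted p under 0.05 and adjusted p between 0.0594 and 0.263 for the 12 genes. Leaving out GL3 replicate A or D reduced the 17 probes to 10 or 11, leaving out PPARa-M replicates C and D raised them to 58, and with C and D as separate samples they were 23, of 60 in the combined comparison.

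Ppara itself was measured by 4 probes, and 2 of them were lower the same way in both pairs. Averaged over the probes, its log2 ratio to the vehicle pool was 0.09, -0.42, -0.29 and -0.35 in PPARa siRNA mice A to D and -0.59, -1.05 and -0.61 with PPARa-M siRNA, the last value being the mean of C and D. It was 0.04, 0.20, 0.00 and 0.15 with GL3 and 0.80, -0.16, 0.12 and -0.07 with SEAP-M. PPARa siRNA mouse A lay within the range of the controls, the 6 other Ppara siRNA samples lay below all 8 controls, and SEAP-M mouse A stood above all others. The combined log2 difference was -0.63 ± 0.13 (SE), which left 64.5% of the control ratio, with a limma adjusted p of 0.0666 over the 15252 gene means. Its probes lay between -0.65 and -0.60, and 2 of the 4 passed at a limma adjusted p of 0.0396 and 0.0432. The difference was -0.34 ± 0.17 (SE) in the PPARa pair and -0.92 ± 0.19 (SE) in the PPARa-M pair, or 78.8% and 52.7% of the control, with limma adjusted p of 0.980 and 0.0224, and the pairs did not differ detectably (adjusted p = 0.382). A two-sided exact permutation test of 7 samples against 8 gave p = 0.00186 for Ppara, or 0.00839 after adjustment over 9 such tests. Its statistic was the difference of sample means (-0.60), which weights samples and not groups equally. It shuffled the samples without regard to which siRNA of either kind they had received. Within the pairs it gave 0.0857 for PPARa siRNA and 0.0571 for PPARa-M siRNA, the latter being the smallest exact p that 3 samples against 4 allow. Without SEAP-M mouse A the difference was -0.53 with a limma adjusted p of 0.0478. In whole liver, fewer cells of a type and less RNA per cell cannot be told apart.

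Vnn1 encodes vanin-1, a pantetheinase that releases pantothenate and cysteamine and a known PPARα target. Its leading probe read -0.04, -0.58, -0.27 and -0.56 in PPARa siRNA mice A to D and -0.68, -0.93 and -0.78 with PPARa-M siRNA, on the log2 ratio scale. In the controls it read 0.12, 0.20, -0.10 and 0.11 with GL3 and 0.16, 0.23, 0.27 and -0.12 with SEAP-M. As for Ppara, PPARa siRNA mouse A was the one Ppara siRNA sample within the controls' range. The combined log2 difference of Vnn1 was -0.69 ± 0.09 (SE), or 62.1% of the control ratio, with a limma adjusted p of 0.00854, the smallest of all probes. It was -0.44 in the PPARa pair and -0.93 in the PPARa-M pair, and the second Vnn1 probe gave a combined difference of -0.60 (limma adjusted p = 0.0116).

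Sort1 encodes sortilin, a sorting receptor that takes part in hepatic lipoprotein handling. A probe for Sort1 read from -0.43 to 0.03 with a median of -0.06 over the 7 Ppara siRNA samples and from 0.14 to 0.44 with a median of 0.24 over the 8 controls. The groups did not overlap, which held for 16 of all probes (0.0681%), 5 with all Ppara siRNA samples above the controls (0.0213%) and 11 with all below (0.0468%). Its combined log2 difference was -0.39 ± 0.06 (SE; limma adjusted p = 0.0125), with -0.31 in the PPARa pair and -0.48 in the PPARa-M pair, whereas the other Sort1 probe gave -0.12 and did not pass. Set against the 4 vehicle mice, the Sort1 probe was -0.13 with Ppara siRNAs and 0.27 with control siRNAs, and neither difference passed. Against vehicle 1 of all probes passed for control siRNAs (0.00426%) and 6 for Ppara siRNAs (0.0255%), none of them among the 17, and these comparisons share samples with the main one.

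Lama1, which encodes the α1 chain of laminin, a basement membrane protein, also gave groups that did not overlap. Its single probe lay between -0.40 and -0.02 with a median of -0.19 with Ppara siRNAs and between 0.02 and 0.51 with a median of 0.21 with control siRNAs. The combined log2 difference was -0.39 ± 0.07 (SE; limma adjusted p = 0.0389), with -0.25 and -0.53 in the PPARa and PPARa-M pairs. Ergic2 encodes a membrane protein of the compartment between endoplasmic reticulum and Golgi. Its probe ranged from -0.48 to -0.07 (median -0.24) against -0.09 to 0.22 (median 0.10), with 6 of 7 Ppara siRNA samples below all controls. For Ergic2 the combined log2 difference was -0.34 ± 0.06 (SE; limma adjusted p = 0.0277). For Chrna2, the α2 subunit of a nicotinic acetylcholine receptor, 1 of 5 probes passed, with -0.73 to 0.13 (median -0.36) against 0.06 to 0.42 (median 0.21). Its combined log2 difference was -0.57 ± 0.11 (SE; limma adjusted p = 0.0378), while the 4 other Chrna2 probes lay between -0.12 and -0.01. PPARa siRNA mouse A was again the sample that overlapped the controls for Chrna2. Adjusted p rose past 0.05 for Lama1, Ergic2, Chrna2 and the Ppara probe when single samples were left out, in 12, 10, 11 and 9 of 17 cases, which are named with the effects of processing.

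**Figure D1:**
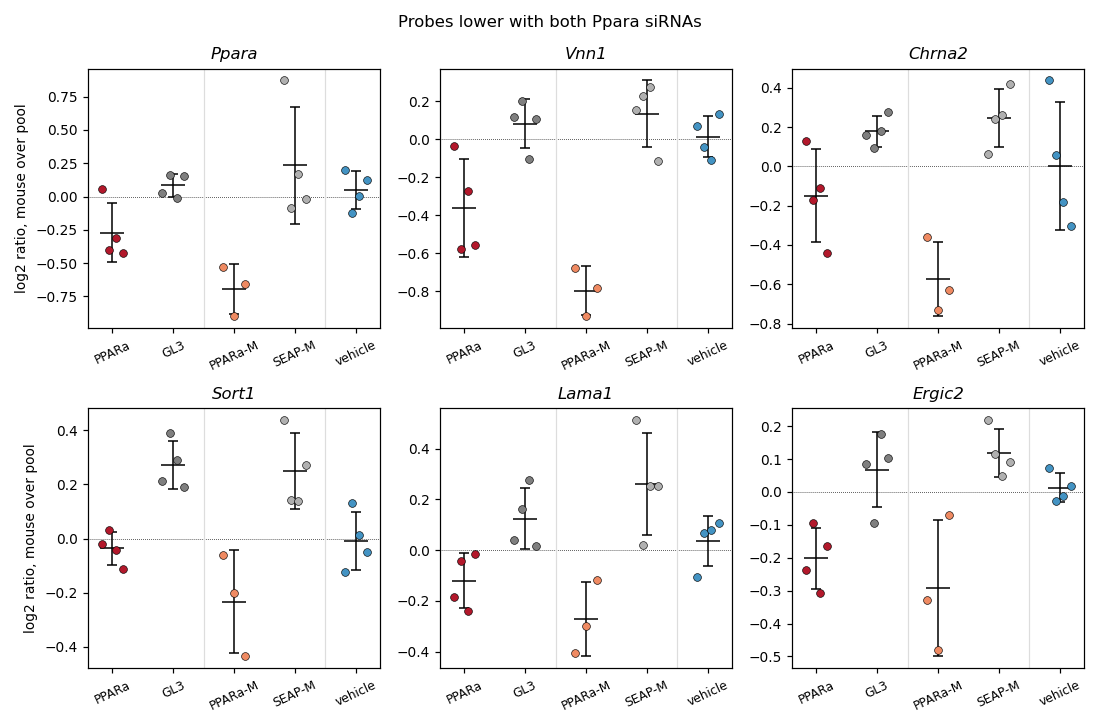
Log2 ratios of mouse over vehicle pool (vertical axes, each panel with its own scale) for the leading probe of each of the 6 genes lower with both Ppara siRNAs, by group on the horizontal axis. Points are samples, the PPARa-M group holding 3, and bars are the mean and SD. The Ppara siRNA and control points do not overlap for Sort1 and Lama1, and 6 of 7 Ppara siRNA points lie below all control points in the other panels.

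The largest increases were in Dusp1, which encodes a phosphatase that inactivates MAP kinases and is itself an immediate-early gene, transcribed within minutes of a stimulus. Its leading probe read 1.54, 1.35, 1.81 and 1.31 in PPARa siRNA mice A to D and 1.56, 0.32 and 1.70 with PPARa-M siRNA. It read -0.69, 0.29, -0.23 and 0.35 with GL3 and -0.50, 0.38, -0.10 and 0.12 with SEAP-M. All PPARa siRNA mice were far above the controls, and PPARa-M siRNA mouse B alone lay within their range. Both siRNAs combined, Dusp1 differed by 1.39 ± 0.21 (SE), a 2.63-fold increase with a limma adjusted p of 0.0116. It was 1.57 in the PPARa pair and 1.22 in the PPARa-M pair, and all 3 Dusp1 probes passed, at 1.21 to 1.39. Relative to vehicle the same probe was 1.38 with Ppara siRNAs and -0.02 with control siRNAs.

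Nr4a1, an orphan nuclear receptor and likewise an immediate-early gene, was higher in all 7 Ppara siRNA samples than in all controls for 1 of its 5 probes. That probe read 0.88, 1.06, 0.34 and 0.72 with PPARa siRNA and 0.37, 0.28 and 0.27 with PPARa-M siRNA. The controls read -0.21, 0.00, -0.01 and -0.20 with GL3 and -0.27, 0.11, 0.00 and -0.05 with SEAP-M. For Nr4a1 the combined log2 difference was 0.61 ± 0.09 (SE), or 1.52-fold (limma adjusted p = 0.0116), with 0.86 in the PPARa pair and 0.36 in the PPARa-M pair. Its 5 probes lay between 0.05 and 1.05, and a second one passed in the combined comparison at 1.05 without reaching an unadjusted p under 0.05 in the PPARa-M pair. The mean of the probes gave 0.56 (limma adjusted p = 0.0215), with 0.88 in the PPARa pair and 0.24 in the PPARa-M pair. In the PPARa-M pair the unadjusted limma p of that mean was 0.0970, so that the mean was not the same way in both pairs.

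Promoters of these immediate-early genes are shown because both have a probe that was higher the same way in both pairs, for Nr4a1 1 of 5. Many such genes carry cAMP response elements, which bind CREB and ATF factors. The sequences are those of RefSeq, build GRCm38.p6, from 250 bases before to 50 bases after the start of the gene, at chr17:26508423-26508722 on the minus strand for Dusp1 and chr15:101266596-101266895 on the plus strand for Nr4a1. Capitals mark the core of the element, TGACG, or its reverse complement CGTCA.
Dusp1: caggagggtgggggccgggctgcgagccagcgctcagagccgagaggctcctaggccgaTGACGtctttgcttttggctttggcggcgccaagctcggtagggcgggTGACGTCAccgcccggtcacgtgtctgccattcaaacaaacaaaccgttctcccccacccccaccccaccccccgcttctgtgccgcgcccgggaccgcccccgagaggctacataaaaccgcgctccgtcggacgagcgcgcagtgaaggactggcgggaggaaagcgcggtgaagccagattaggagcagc
Nr4a1: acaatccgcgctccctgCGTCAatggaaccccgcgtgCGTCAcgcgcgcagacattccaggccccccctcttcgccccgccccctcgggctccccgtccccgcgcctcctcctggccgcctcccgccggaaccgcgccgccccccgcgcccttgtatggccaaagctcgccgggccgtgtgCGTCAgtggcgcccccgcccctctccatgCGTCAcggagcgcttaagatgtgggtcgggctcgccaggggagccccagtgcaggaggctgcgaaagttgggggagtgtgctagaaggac
In the Dusp1 sequence the core starts 191, 143 and 140 bases before the start, the latter pair being the overlapping strands of 1 full element, TGACGTCA. In the Nr4a1 sequence it starts 233, 213, 69 and 40 bases before the start. On both strands, TGACGTCA was found in 588 of all 32851 promoters of this length (1.79%) and TGACG in 6837 (20.8%), the former always counted within the latter. Of the 12 genes the same way in both pairs 7 had a promoter entry, and TGACG was found in 4 of them, 1700067K01Rik, Dusp1, Nr4a1 and Ppara. A direct repeat of AGGTCA with any 1 base between, the kind of element that PPARα and RXR bind, was in 13 of all promoters (0.0396%), in 0 of these 7 and in 0 of 43 promoters of PPARα target genes. A match describes the letters of this window and no more.

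Of the other higher genes, Asl encodes argininosuccinate lyase, an enzyme of the urea cycle. Its probe read from -0.14 to 0.43 with a median of 0.14 over the Ppara siRNA samples and from -0.43 to -0.19 with a median of -0.28 over the controls, without overlap. Asl differed by 0.43 ± 0.07 (SE), or 1.35-fold (limma adjusted p = 0.0116), with 0.26 in the PPARa pair and 0.61 in the PPARa-M pair. Gstt3 encodes a glutathione S-transferase of the theta class. It read -0.31, -0.28, -0.20 and -0.03 with PPARa siRNA, 0.04, 0.26 and 0.15 with PPARa-M siRNA, -0.50, -0.72, -0.50 and -0.59 with GL3 and -0.22, -0.32, -0.42 and -0.41 with SEAP-M. Each Ppara siRNA sample was above every mouse of its own control, although 2 of 7 overlapped the other control group. Gstt3 differed by 0.43 ± 0.07 (SE; limma adjusted p = 0.0116), with 0.37 and 0.49 in the pairs. Relative to vehicle, Gstt3 was -0.02 with Ppara siRNAs and -0.45 with control siRNAs (limma adjusted p = 0.223 for the latter), and Asl was 0.17 and -0.26. None of these differences passed the threshold. The Gstt3 value of -0.02 combines group means on opposite sides of vehicle (-0.01), -0.21 with PPARa siRNA and 0.15 with PPARa-M siRNA. Its group means were -0.58 with GL3 and -0.34 with SEAP-M. For Asl the group mean was -0.05 with PPARa siRNA and 0.32 with PPARa-M siRNA, against -0.03 in vehicle.

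Ggt6 belongs to the γ-glutamyltransferase family, enzymes that act on glutathione and its conjugates. Its probe ranged from 0.04 to 0.72 (median 0.35) with Ppara siRNAs and from -0.23 to 0.11 (median -0.09) with control siRNAs, and 5 of 7 samples lay above all controls. Ggt6 differed by 0.45 ± 0.07 (SE), or 1.36-fold (limma adjusted p = 0.0116), with 0.28 and 0.62 in the pairs. For 1700067K01Rik, the range was -0.15 to 1.60 (median 0.46) against -0.57 to -0.12 (median -0.26). This difference was 0.80 ± 0.14 (SE), or 1.74-fold (limma adjusted p = 0.0336), and 0.42 and 1.18 in the PPARa and PPARa-M pairs. The probe of 1700067K01Rik was no longer the same way in both pairs in 12 of 17 omissions of samples, in 9 of them because its combined adjusted p rose past 0.05. The probes of Asl, Gstt3, Ggt6, Dusp1, Nr4a1, Vnn1 and Sort1 passed in the combined comparison without each sample in turn. Without PPARa siRNA mouse D, however, Asl was not the same way in both pairs.

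**Figure D2:**
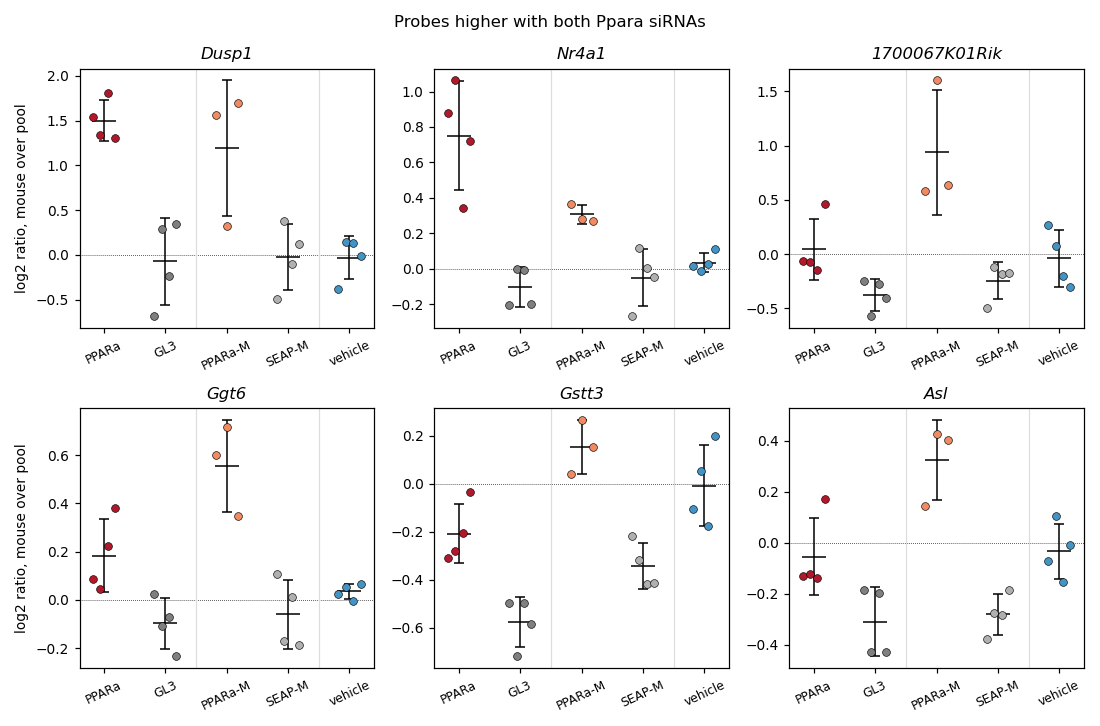
Log2 ratios of mouse over vehicle pool (vertical axes, each panel with its own scale) for the leading probe of each of the 6 genes higher with both Ppara siRNAs, by group. Points are samples and bars the mean and SD. All 7 Ppara siRNA points lie above all control points for Nr4a1 and Asl, and the PPARa-M point of Dusp1 at 0.32 lies among the controls.

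Of the 36 probes that passed in the combined comparison, the 19 others were carried largely by 1 pair. In 14 of them the unadjusted p was under 0.05 in the PPARa-M pair alone, in 4 in the PPARa pair alone, and 1, for the carboxylesterase gene Ces1g, had opposite signs. The 4 from the PPARa pair were the second Nr4a1 probe, both probes of Junb, an AP-1 subunit, and a probe of Btg2, an antiproliferative immediate-early gene. Those from the PPARa-M pair included Fads2, the Δ6 fatty acid desaturase, with 2 probes at -0.53 and -0.45. Fads2 differed by -0.13 and -0.12 in the PPARa pair and by -0.93 and -0.79 in the PPARa-M pair, and the pairs differed at limma adjusted p of 0.0342 and 0.0333. Altogether 9 of the 36 probes also passed for the difference between the pairs, none of them among the 17 the same way in both. The rule for the 17 disfavours a large difference between the pairs, so that this split does not test whether the pairs agree. Among these 19 probes, genes outside the naming rule were chosen after their values were seen. In a fit of gene means 20 of 15252 genes passed (0.131%), and Lama3, the α3 chain of laminin, was then the same way in both pairs at -0.29 (limma adjusted p = 0.0350), with Vnn1, Lama1, Ergic2, Dusp1, 1700067K01Rik, Ggt6, Gstt3 and Asl.

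Over all probes the pairs had little in common. PPARa siRNA against GL3 gave 32 probes (0.136%), 19 higher (0.0809%) and 13 lower (0.0553%). PPARa-M siRNA against SEAP-M gave 316 (1.35%), 134 higher (0.57%) and 182 lower (0.775%), and 0 passed in limma in both pairs, although 119 probes (0.507%) had the same sign and an unadjusted p under 0.05 in both. The sign of the difference was the same in both pairs for 50.8% of all probes, for 42.4% of the 316 and for 31.2% of the 32. With the controls exchanged between the pairs the share over all probes was 39.8%, and 20 probes were then the same way, of which 15 were among the 17. The control siRNAs differed from each other in 0 probes by limma, with 2402 at an unadjusted p under 0.05 (10.2%). With the controls exchanged, 2252 probes differed between the pairs. As paired here, the pairs themselves differed in 245 probes (1.04%), 192 higher (0.817%) and 53 lower (0.226%) in the PPARa-M pair. Without PPARa-M siRNA mouse B, 0 probes passed for this difference, with 2721 at an unadjusted p under 0.05.

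**Figure D3:**
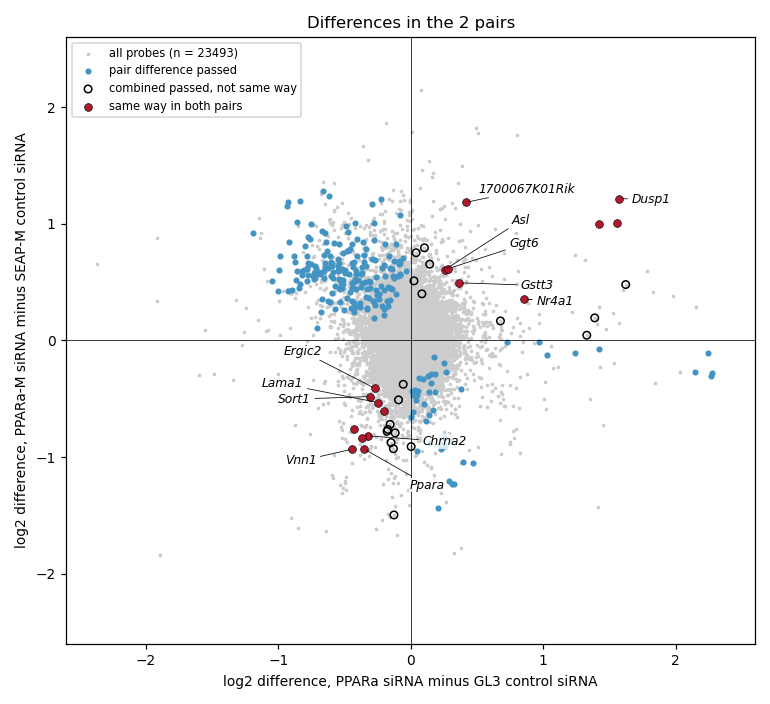
Log2 difference of PPARa siRNA minus GL3 (horizontal axis) against that of PPARa-M siRNA minus SEAP-M (vertical axis), 1 point per probe, with 2 probes beyond the plotted range. Filled red points are the 17 probes the same way in both pairs, labelled by gene at the leading probe, open circles the 19 others that passed in the combined comparison, and blue points the probes whose pairs differed. Of the 245 probes whose pairs differed, 237 have opposite signs, which a choice by this difference favours. The red points have equal signs by the rule that defines them.

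The 6 named probes with the smallest p for the difference between the pairs had opposite signs, which a choice by that p favours. Zc3hav1, an antiviral RNA-binding protein, differed by -0.42 in the PPARa pair and 1.00 in the PPARa-M pair. Nmi, an interferon-inducible protein, differed by -0.08 and 0.56, and Klf12, a transcriptional repressor, by -0.36 and 0.73. Abhd17b, a depalmitoylating enzyme, differed by -0.86 and 0.59. H2-T18 and H2-Q10, MHC class I genes whose near-identical relatives may share the probe's signal, differed by 0.17 and -0.60 and by 0.25 and -0.83.

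PPARα target genes, Vnn1 among them, were examined as a list of 46 genes on the array, of 57 listed. In the combined comparison 1 passed, Vnn1, against 0.059% of all genes passing as lower. Their median log2 difference was -0.14, against -0.01 over all genes, and 35 of 46 (76.1%) were negative against 52.3% of all genes. Nominally, by which an unadjusted p under 0.05 is meant here and below, 18 were lower (39.1% against 7.07%) and 2 higher. The higher ones, chosen after their values were seen, were Slc22a5, a carnitine transporter, at 0.21 and G0s2, an inhibitor of lipolysis, at 0.59. The median was -0.09 in the PPARa pair and -0.18 in the PPARa-M pair, and the sign was the same in both for 29 of 46 genes (63.0% against 51.1% of all genes). In the PPARa pair 6 were nominally lower (13.0% against 2.90% of all genes) and 0 passed in limma. In the PPARa-M pair 21 were nominally lower (45.7% against 10.5%), and 4 passed in limma as lower, against 0.78% of all genes. The mean over the list in each sample was -0.31 to -0.03 with Ppara siRNAs and -0.13 to 0.03 with control siRNAs, so that the groups overlapped.

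**Figure D4:**
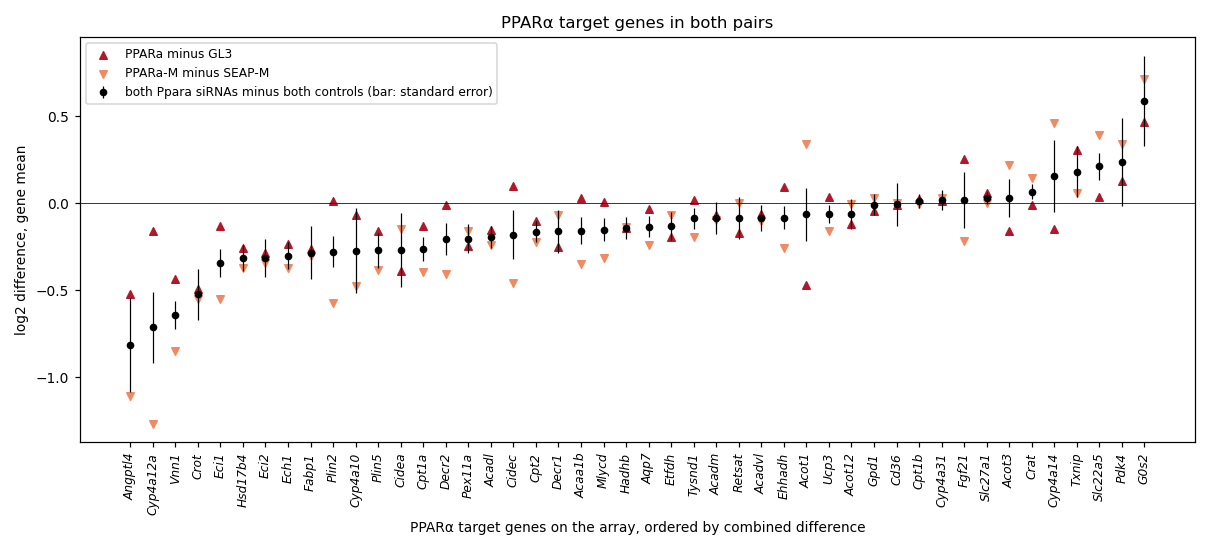
Log2 differences of gene means for the 46 PPARα target genes on the array, ordered by the combined difference (horizontal axis). Black points are both Ppara siRNAs minus both controls with the standard error, and triangles the separate pairs. The combined value is negative for 35 of 46 genes, and the pairs lie on opposite sides of 0 for 17 of them.

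Cpt1a, the carnitine palmitoyltransferase of the outer mitochondrial membrane that admits long-chain fatty acids to β-oxidation, was measured by 5 probes. Their mean read -0.08, -0.14, -0.27 and -0.14 with PPARa siRNA, -0.29, -0.67 and -0.19 with PPARa-M siRNA, -0.14, 0.10, -0.04 and -0.04 with GL3 and 0.20, -0.09, 0.01 and -0.06 with SEAP-M. All Ppara siRNA samples but PPARa siRNA mouse A lay at or below the lowest control. The combined log2 difference of Cpt1a was -0.26 ± 0.07 (SE), or 83.3% of the control ratio, with a limma adjusted p of 0.156. A two-sided exact permutation test of Cpt1a over 7 against 8 samples gave p = 0.00155 (0.00839 adjusted over the 9 tests). The Cpt1a probes disagreed in size, from -0.48 to 0.00.

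For Acadl, an acyl-CoA dehydrogenase for long chains, the mean of 3 probes was -0.22, -0.21, -0.04 and -0.23 with PPARa siRNA, -0.20, -0.54 and -0.27 with PPARa-M siRNA, 0.05, 0.00, -0.16 and 0.02 with GL3 and -0.21, -0.13, 0.04 and -0.10 with SEAP-M. The groups of Acadl overlapped in 3 of 7 Ppara siRNA samples. Its combined log2 difference was -0.20 ± 0.06 (SE; limma adjusted p = 0.248), and the exact permutation test gave p = 0.0109 (0.0326 adjusted over the 9 tests). Acadl differed by -0.15 in the PPARa pair (exact permutation p = 0.0571) and by -0.24 in the PPARa-M pair (exact permutation p = 0.114).

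Other steps of fatty acid oxidation gave mostly negative differences without a gene past the adjusted threshold in limma in the combined comparison. Of all genes 52.3% were negative and 7.07% nominally lower, against which the lists that follow are to be read. Of 21 mitochondrial fatty acid oxidation genes 17 were negative, with a median of -0.12, and 8 were nominally lower (38.1%) and 1 nominally higher. In the PPARa pair 0 of the 21 were nominally lower, against 2.90% of all genes. In the PPARa-M pair 8 were (38.1% against 10.5%), and 1 passed in limma as lower, so that these calls came from 1 pair. Eci1, an enoyl-CoA isomerase, differed by -0.34 (limma adjusted p = 0.121), with -0.13 in the PPARa pair and -0.55 in the PPARa-M pair. Of 17 peroxisomal β-oxidation genes 14 were negative, with a median of -0.16 and 7 nominally lower (41.2%). Nominally lower were 5 of the 17 in the PPARa pair and 8 in the PPARa-M pair. The mean over these 17 genes was -0.32 to -0.16 in the Ppara siRNA samples and -0.16 to 0.03 in the controls, with values that met at the edge. Hsd17b4, the peroxisomal multifunctional enzyme, read -0.24, -0.26, -0.39 and -0.43 with PPARa siRNA and -0.25, -0.60 and -0.24 with PPARa-M siRNA. In the controls Hsd17b4 lay between -0.14 and 0.28, so that all 7 samples were below all 8 controls. Its combined log2 difference was -0.32, with a limma adjusted p of 0.121 over gene means, and -0.26 and -0.37 in the pairs. Ech1, a dienoyl-CoA isomerase, differed by -0.30 and Crot, the peroxisomal carnitine octanoyltransferase, by -0.52, with limma adjusted p of 0.156 and 0.195. For Crot, PPARa-M siRNA mouse B read -1.58 while the other Ppara siRNA samples read -0.53 to -0.19, and without mouse B the difference was -0.32.

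Of the 4 ketone body genes on the array all were negative (median -0.21), led by the thiolase Acat1 at -0.26 and the hydroxybutyrate dehydrogenase Bdh1 at -0.31, and 2 were nominally lower. In the PPARa pair 0 of the 4 were nominally lower, and in the PPARa-M pair 2. Without PPARa siRNA mouse D Acat1 was -0.17, and without PPARa-M siRNA C and D Bdh1 was -0.18. The 16 peroxisome biogenesis genes had a median of -0.10, with 4 nominally lower (25%), among them the peroxins Pex19 at -0.20 and Pex11a at -0.20. Their median was -0.01 in the PPARa pair and -0.18 in the PPARa-M pair, with 1 and 4 nominally lower. Without PPARa-M siRNA mouse B Pex19 was -0.10. Among 21 receptors and coregulators of the PPAR and RXR family, which include Ppara, the median was 0.01. The bile acid receptor gene Nr1h4 (FXR) differed by -0.28 (limma adjusted p = 0.226), with -0.27 and -0.29 in the pairs, and Pparg by -0.17. In 20 genes of bile acid synthesis and transport the median was -0.20, with 6 nominally lower (30%). Nominally lower were 1 of them in the PPARa pair and 7 in the PPARa-M pair. Slco1a1, an organic anion uptake transporter, differed by -0.68 and Abcb4, the phosphatidylcholine exporter of the canaliculus, by -0.28, and neither passed.

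Immediate-early genes were the list with the most genes that passed, 3 of 24 on the array, all higher, against 0.0721% of all genes as higher. These were Dusp1 (mean of 3 probes 1.29, limma adjusted p = 0.0127), Junb (0.61, limma adjusted p = 0.0135) and Nr4a1 (0.56, limma adjusted p = 0.0215). The mean of the Nr4a1 probes, unlike its leading probe, missed the threshold without PPARa siRNA mouse B or D, SEAP-M mouse A or D or GL3 mouse D, with a limma adjusted p of up to 0.0681. The median of the list was 0.22, with 19 of 24 genes positive and 10 nominally higher (41.7% against 4.96% of all genes). The list mean was 0.06 to 0.65 in the Ppara siRNA samples and -0.16 to 0.19 in the controls. In the PPARa pair 6 genes of all 15252 passed (0.0393%), and 5 of them were on this list, Junb, Btg2, Nr4a1, Ier2 and Egr1, the last pair of names being chosen after their values were seen. None of the list passed in the PPARa-M pair in limma, where 180 of all genes did (1.18%, 0.4% as higher), and where its median was 0.10 against 0.27 in the PPARa pair.

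Junb read 1.08, 1.22, 1.23 and 0.82 with PPARa siRNA and -0.01, 0.32 and 0.05 with PPARa-M siRNA, against -0.30 to 0.26 in the controls. All 4 PPARa siRNA mice lay above the controls, and of the PPARa-M siRNA samples only mouse B did. Its log2 difference was 1.03 in the PPARa pair and 0.18 in the PPARa-M pair, and the test of the difference gave a limma adjusted p of 0.0637. Egr1, a zinc finger transcription factor, differed by 2.20 and -0.24 (limma adjusted p = 0.0551 for the difference between the pairs). Btg2, one of 46 genes whose pairs differed (0.302%), was 1.26 and -0.06, and the pairs differed at a limma adjusted p of 0.0374.

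Cholesterol synthesis genes had a combined median of -0.19 that described neither pair. The median of the 18 genes was 0.19 in the PPARa pair and -0.62 in the PPARa-M pair, and 0 of 18 had the same sign in both. No gene passed in the combined comparison in limma, with 6 nominally lower, and 5 passed as lower in the PPARa-M pair, against 0.78% of all genes. Cyp51, the lanosterol demethylase, read 0.33, -0.10, 0.48 and 0.16 with PPARa siRNA and -1.78, -1.72 and -1.01 with PPARa-M siRNA, against -0.37 to 0.48 in the controls. Only the PPARa-M siRNA samples lay apart. Its log2 difference was 0.21 in the PPARa pair and -1.44 in the PPARa-M pair, with a limma adjusted p of 0.0538 for the difference. Fdps, the farnesyl diphosphate synthase, differed by 0.32 and -1.23, and Idi1, the isopentenyl diphosphate isomerase, by 0.16 and -1.26.

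Other lists also had combined values that came mainly from 1 pair or from few samples, and none of their genes passed in limma in the combined comparison. Of 41 cell cycle genes 34 were negative with a median of -0.24, and 11 were nominally lower, while the median was -0.02 in the PPARa pair and -0.42 in the PPARa-M pair. The sign was nevertheless the same in both pairs for 28 of the 41 (68.3% against 51.1% of all genes). The cell cycle list mean was -0.33, -0.05, -0.17 and 0.29 in PPARa siRNA mice A to D and -0.56 to 0.38 in the controls. Cdkn3, a cyclin-dependent kinase phosphatase, differed by -0.52 and Cenpa, the centromeric histone H3 variant, by -0.60. The 35 interferon-stimulated genes had medians of -0.09 and 0.33 in the pairs, with 2 nominally higher, and the list mean of the PPARa-M siRNA samples was 0.10, -0.10 and 1.17, high only in C and D. The 25 acute phase genes had medians of 0.59 and -0.13, with a list mean of 1.52 in PPARa siRNA mouse D against -0.15 to 0.39 in the other PPARa siRNA mice. In the same mouse the mean of 11 neutrophil markers was 2.26, against -0.15 to 0.49 in the other mice of its group. Neutrophil markers over all Ppara siRNA samples ranged from -0.23 to 2.26 and over all controls from -0.37 to 0.53, and their part in the acute phase values was not tested.

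None of the markers of liver and blood cell types passed in limma in the combined comparison. The 11 hepatocyte markers had a median of -0.01 and the 14 markers of stellate cells and fibroblasts -0.13, with 3 nominally lower. Cholangiocyte markers had a median of 0.17, with 8 of 9 positive. In the PPARa-M pair 1 of the 9 passed in limma as higher, and 1 was nominally lower. In the combined comparison none passed in limma, and 4 were nominally higher (44.4% against 4.96% of all genes). These were Krt7 at 0.52, Krt19 at 0.30 and the progenitor factor Sox9 at 0.30, with Cldn4, a tight junction claudin, at 0.27. Krt7 was 0.54 and 0.51, Krt19 0.22 and 0.38, and Sox9 0.34 and 0.26 in the PPARa and PPARa-M pairs. The mean over the cholangiocyte markers was -0.11 to 0.33 in the Ppara siRNA samples and -0.26 to 0.20 in the controls, which overlap. Of 36 lists, 33 had no gene past the threshold in limma, and in those at most 11 genes were nominally lower and at most 4 nominally higher. The third list with a gene past it held 16 genes of the urea cycle and amino acid catabolism, of which Asl rose and the median was 0.08. A list of 11 genes that the study names for liver hypertrophy had a median of -0.12 with 2 nominally lower. The study inferred gene pairs from mouse livers with Ppara siRNAs, then chose these genes from the pairs with rat liver profiles and liver weights. The list is therefore not independent of the mouse data.

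**Figure D5:**
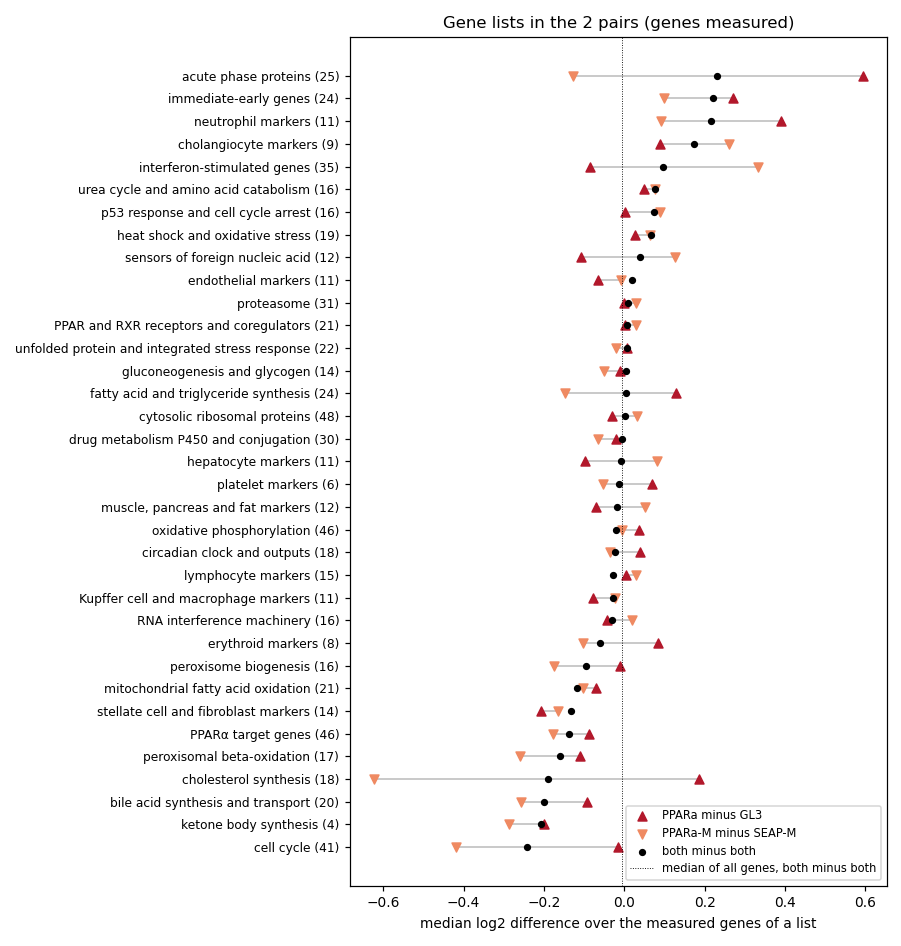
Median log2 difference over the measured genes of each list (horizontal axis), for both Ppara siRNAs minus both controls (black) and for the separate pairs (triangles), with the number of genes in brackets. The dotted line is the median of all genes. The pairs stand on opposite sides of 0 for cholesterol synthesis (0.19 and -0.62) and acute phase proteins (0.59 and -0.13), and on the same side for PPARα targets and peroxisomal β-oxidation.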

How the data were processed

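The authors deposited log10 ratios of 2-colour custom oligonucleotide arrays (liver RNA against a pool of 4 vehicle mice) for 23493 probes; their normalization, software and error weights are not given in the sources used here, and 40 of 469860 values stand at the limit of 2 or -2. Ratios were converted to log2. Of the probes 18790 carry a single symbol (array annotation; 18275 with an Entrez identifier in the RefSeq gene table of GRCm38.p6), 4638 none and 65 several.

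A model with 1 mean per group was fitted with limma 3.58.1 in R 4.3.3 to 19 samples. All 20 arrays had been planned as separate samples, but PPARa-M siRNA replicates C and D were averaged because their differences did not repeat between probes of 1 gene. Whether they are separate animals is not known. The combined contrast is the mean of the Ppara siRNA group means minus that of the control group means, Benjamini-Hochberg adjusted over all probes or 15252 gene means (threshold 0.05). A probe is the same way in both pairs if it passes and each pair shows the same sign at an unadjusted p under 0.05.

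Named are Ppara, Cpt1a, Acadl, up to 15 genes higher and 15 lower the same way in both pairs, up to 4 members of each of 36 lists by smallest p and 6 probes by smallest p between the pairs. Genes and lists were chosen with earlier results of these data known. On simulated data for this comparison (23493 probes), 95 of 100 shifts of 2-fold in both pairs, 88 of 100 of 1.5-fold and 3 of 100 of 2-fold in the PPARa-M pair alone were called the same way, and 7 of 23193 unshifted probes. The simulated noise was normal, independent and equally wide in all groups for each probe. The measured ratios need not meet this, so that these rates may not hold for them. Exact permutation tests and motif counts used Python 3.11.15, numpy 2.4.6, scipy 1.17.1 and pandas 2.3.3, and figures matplotlib 3.10.9. Alternatives were median centring, quantile normalization, array weights, robust moderation, the siRNA arrays alone, a replicate block, a threshold of 0.01, 1 value per gene, a 1.5-fold filter, 2 groups, the other pairing, the larger pair p and each sample left out.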

Additional observations from a re-analysis of the deposited data

Results flagged for a closer look

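Of 84 groups of 4 samples examined, 7 held a sample far from the other 3, where chance gives about 1 in 20 groups (5%). Acadl in PPARa siRNA mouse C read -0.045 (log2 ratio) against -0.23 to -0.21 in the other mice of the group. PPARa siRNA mouse D read 0.46 for 1700067K01Rik against -0.15 to -0.07, and 0.17 for Asl against -0.14 to -0.12. SEAP-M mouse A read -0.50 for 1700067K01Rik against -0.18 to -0.12, and its neutrophil marker mean was -0.37 against -0.23 in each of the others. Vehicle mouse A read 0.13 for Chrna2 (mean of 5 probes) against -0.07 to -0.04. The mean of the cholesterol synthesis genes was -0.17 in PPARa siRNA mouse B against 0.37 to 0.48.

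The log2 difference was larger or smaller in the PPARa-M pair than in the PPARa pair by the test of the difference itself, at a limma adjusted p of 0.0149 each, for H2-T18 by -0.77, Klf12 by 1.09, Zc3hav1 by 1.43, H2-Q10 by -1.08, Nmi by 0.64 and Abhd17b by 1.45. For the mean of the Btg2 probes it was smaller by -1.32 (limma adjusted p = 0.0374). The 6 probe calls were lost with quantile normalization and without PPARa-M siRNA mouse B, where no probe passed for the difference.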

How the results depend on the processing

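No result changed direction under any alternative run. The 36 probes of the combined comparison, 17 the same way in both pairs and 245 that differed between the pairs became 0, 0 and 0 with quantile normalization (1577, 79 and 1861 at an unadjusted p under 0.05), 274, 121 and 707 with array weights, 1, 1 and 0 at an adjusted p under 0.01, 20, 9 and 46 genes with 1 value per gene, and 13, 9 and 8 where the combined difference was at least 1.5-fold. Of the 245, 218 had pairs that differed by at least 1.5-fold, a filter chosen after seeing the data. A fit with all Ppara siRNA and all control samples as 2 groups gave 0 probes (1594 unadjusted), the larger pair p after adjustment gave 0 (119 unadjusted with the same sign), and the siRNA arrays alone gave 11 the same way. The other pairing gave 2252 probes for the difference, which there is PPARa-M and SEAP-M together against PPARa and GL3 together. Median centring, robust moderation and, for the remaining counts, the siRNA arrays alone stayed within 1.5-fold. With C and D as separate samples, an alternative chosen after seeing the data, the counts were 60, 23 and 392, and all 36 and 17 were among the 60 and 23. The cause of these shifts was not tested.

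The Ppara difference stayed between -0.65 and -0.51. It passed in limma with array weights (-0.51, adjusted p = 0.0162), with C and D separate (-0.62, 0.0410) and for single probes (-0.60 and -0.64). Deviations from the group means correlated at -0.10 to 0.29 between siRNA samples with the same replicate letter. Samples with different letters were not compared, so that this range cannot tell whether the letters pair the samples. With the letter as a block the counts were 30, 17 and 234, and Ppara was -0.64 (adjusted p = 0.0317).

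Leaving out each sample gave 21 to 51 probes, 10 to 25 the same way and 0 to 311 between the pairs, and Ppara from -0.69 to -0.53 (adjusted p 0.0452 to 0.225). The combined count was 154 without both C and D (Ppara -0.67), 22 without GL3 A and 21 without GL3 D, and the same-way count 58, 10 and 11. Between the pairs it was 0 without PPARa-M B, 146 without PPARa A, 64 without PPARa C, 55 without SEAP-M A, 58 without SEAP-M C, 54 without GL3 B, 70 without GL3 C and 140 without GL3 D. Ppara passed without C and D, PPARa A or SEAP-M A. Of 17 omissions, Lama1 missed the threshold in all but PPARa-M C, D or both, PPARa D and SEAP-M B (up to adjusted p = 0.104). Ergic2 missed it in all but PPARa-M D or both, PPARa B and D, SEAP-M C and D and GL3 B (up to 0.0780). Chrna2 missed it in all but PPARa-M A, C, D or both, PPARa A and SEAP-M A (up to 0.130), and the Ppara probe in all but these, SEAP-M B and SEAP-M D (up to 0.162). 1700067K01Rik missed it in all but PPARa-M A, B, C, D or both, PPARa B and C and SEAP-M B (up to 0.0795).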
